A study of Mus musculus with 10 samples.

Results

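The shortest chromatin loops of mouse bone marrow-derived macrophages, those that join a 10 kb bin to the bin next to it, were examined across a model of IL-4 priming followed by IFNG. A loop was included when its second anchor started exactly 10 kb after the first on an autosome, so that both anchors together covered 20 kb without a gap. Over the 5 loop lists, 6869 distinct adjacent bin pairs met this rule, out of 152753 distinct autosomal bin pairs of any span. The cells came from wild-type female C57BL/6 mice aged 2 to 3 months and were differentiated with M-CSF at 20 ng/ml, which was also present during treatment, to day 6. M0[CTR] cells were untreated, and M2[IL-4] cells were kept in 20 ng/ml IL-4 for 24 h. M2p[pIL-4] cells had the same IL-4 treatment and were afterwards washed and rested for 24 h. IFNG cells were given 20 ng/ml interferon gamma for 3 h, and pIL-4+IFNG cells were given it after IL-4 and rest. Each group held 2 samples but was represented by 1 list, so replicates appeared merged and no difference below has a replicate check. Adjacent loops numbered 2612, 3291, 3076, 2472 and 3378 in the lists of M0[CTR], M2[IL-4], M2p[pIL-4], IFNG and pIL-4+IFNG. Wherever 5 values follow each other without names, they keep this order of the lists.

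Hi-C ligates and sequences DNA segments that lie near each other in the nucleus. Contact frequency falls steeply with distance along the chromosome, so neighbouring bins touch often and a call there marks a pair whose contacts were enough for the authors' caller. Contacts at this scale can lie within a single gene, between a promoter and a nearby enhancer, or across a site of CTCF, the protein that anchors many longer loops. In macrophages, IL-4 acts through STAT6, which binds TTC and GAA spaced by a few bases. IFNG signalling acts at the gamma-activated site (GAS), and interferon regulatory factors bind the interferon-stimulated response element (ISRE).

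Promoters of 5 genes are shown because their adjacent pairs carry the comparisons below: a chemokine and a GTPase gene whose pairs were called in both IFNG-treated lists only, a coagulation gene with pairs in M2[IL-4] only, and a pair of transcription factor genes with pairs in all 5 lists. Each sequence is the 250 bases before a RefSeq start on GRCm38, read 5′ to 3′ on the gene's strand. Capitals mark matches on either strand to GAS (TTCNNNGAA), to an ISRE-like motif (GAAANNGAAA) or to the STAT6 spacing (TTCNNNNGAA); matches may overlap.
Cxcl10, chr5:92348890-92349139, minus strand: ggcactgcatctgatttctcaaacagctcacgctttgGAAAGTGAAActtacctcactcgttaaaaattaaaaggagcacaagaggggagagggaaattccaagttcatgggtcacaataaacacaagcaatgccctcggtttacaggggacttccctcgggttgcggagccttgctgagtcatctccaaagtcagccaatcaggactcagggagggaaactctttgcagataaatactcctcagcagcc
Gbp7, chr3:142530086-142530335, plus strand: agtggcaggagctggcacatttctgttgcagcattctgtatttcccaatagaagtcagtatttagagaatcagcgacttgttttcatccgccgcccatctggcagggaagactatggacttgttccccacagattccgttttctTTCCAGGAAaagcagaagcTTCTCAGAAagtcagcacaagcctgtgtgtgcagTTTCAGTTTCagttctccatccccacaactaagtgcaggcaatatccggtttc
F10, chr8:13037058-13037307, plus strand: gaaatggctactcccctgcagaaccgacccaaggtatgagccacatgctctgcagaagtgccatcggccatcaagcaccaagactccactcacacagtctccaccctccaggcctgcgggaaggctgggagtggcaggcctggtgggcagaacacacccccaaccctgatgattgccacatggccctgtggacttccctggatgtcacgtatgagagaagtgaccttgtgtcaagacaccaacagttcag
Irf8, chr8:120736108-120736357, plus strand: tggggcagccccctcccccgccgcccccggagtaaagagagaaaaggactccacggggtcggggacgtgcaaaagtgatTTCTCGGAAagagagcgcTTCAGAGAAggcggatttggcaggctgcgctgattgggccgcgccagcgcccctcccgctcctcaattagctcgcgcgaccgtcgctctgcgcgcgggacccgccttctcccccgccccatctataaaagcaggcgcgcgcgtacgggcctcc
Fos, chr12:85473640-85473889, plus strand: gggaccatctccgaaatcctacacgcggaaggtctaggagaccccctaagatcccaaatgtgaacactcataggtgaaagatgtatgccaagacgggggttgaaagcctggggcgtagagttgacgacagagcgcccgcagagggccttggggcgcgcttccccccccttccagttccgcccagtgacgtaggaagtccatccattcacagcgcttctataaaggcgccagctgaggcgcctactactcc
The Cxcl10 stretch held 1 ISRE-like match, that of Gbp7 held 2 GAS matches and 1 ISRE-like match, and that of Irf8 held 2 GAS matches. The F10 and Fos stretches held no match to any of the 3 motifs. Among 31396 autosomal RefSeq promoters cut to the same length, 7.06% held GAS, 2.98% the ISRE-like motif and 5.90% the STAT6 spacing. The same stretch before the starts of Ifi47, a GTPase gene of the IFNG-induced list, and Rnf213, whose window is given further on, held no GAS or ISRE-like match, nor did the stretch before another RefSeq start of Irf8. These matches describe letters only.

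Genes of the IFNG-induced list lay next to adjacent loops mainly in both lists from IFNG-treated cells. The gene list was chosen with earlier results of these data known, so the counts describe it and are no independent test. Of 29 such genes matched to the annotation, the transcription start site (TSS) lay within 20 kb of an adjacent pair for 8, 9 and 11 in the lists without IFNG and for 23 and 23 in those with it. Over all 20807 autosomal protein-coding genes, the share was 17.0%, 19.1%, 18.4%, 16.5% and 19.7%, and 29.1% for any list. The median number of adjacent pairs per gene was 1 for the list in both IFNG-treated lists and 0 in the other lists, and it was 0 over all genes in each of the 5. Because neighbours such as the Gbp genes share pairs, the 29 genes formed 21 loci, joining starts within 200 kb; of these, 6, 7, 9, 16 and 16 had an adjacent pair nearby. The distinct adjacent pairs behind these counts numbered 10, 13, 12, 32 and 36. With the stricter requirement that the TSS lay inside the pair, the counts were 5, 8, 7, 11 and 10 genes, against 7.72%, 8.69%, 8.55%, 7.20% and 9.18% of all genes. IFNG was nevertheless the list with the fewest adjacent loops, 2472.

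For 13 of the 29 genes, at 8 loci, adjacent pairs lay within 20 kb in both IFNG-treated lists and in none of the others. Over all protein-coding genes, 155 showed this pattern, or 0.745%. Among the 13 genes were Socs1, a feedback inhibitor of cytokine signalling; Nlrc5, a transactivator of MHC class I genes; the chemokine genes Cxcl9 and Cxcl10; the guanylate-binding protein genes Gbp2, Gbp3, Gbp5 and Gbp7; the immunity-related GTPase genes Irgm1, Irgm2 and Igtp; and Parp14, an ADP-ribosyltransferase gene. Socs1 also stands in the IL-4-induced list. No pattern of this kind was found for macrophage, AP-1 and immediate early genes or markers of other cell types (0 genes each). It was found for 1 gene of the housekeeping list, B2m, and, in Socs1 itself, for 1 IL-4-induced gene. The reverse pattern, pairs in the 3 lists without IFNG and no other, was found for 0 genes of the list and for 0.625% of all genes.

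At Cxcl10, which encodes a T cell-recruiting chemokine, the pair chr5:92330001-92350000 held its TSS and that of Art3. It had 172 contacts in IFNG (95% Poisson interval 147 to 200) and 156 in pIL-4+IFNG (132 to 182). The next called pair, chr5:92350001-92370000, had 103 and 95 contacts. Neither pair was called in the other lists, and a pair that is not called has no count, so its level there is unknown and not 0.

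The Gbp cluster on chromosome 3 encodes GTPases that act against intracellular microbes. The Gbp7 pair chr3:142530001-142550000 had 88 contacts in IFNG (70.6 to 108) and 86 in pIL-4+IFNG (68.8 to 106). Its neighbour chr3:142540001-142560000 had 80 and 93 contacts. Near Gbp2, the pair chr3:142590001-142610000 had 125 contacts in IFNG and 128 in pIL-4+IFNG. These counts lay mostly below the medians of their lists, which were 147 in IFNG and 144 in pIL-4+IFNG. Gbp genes are close copies of each other, and the handling of reads that map to several copies was not given in the sources used here.

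Socs1 had stronger pairs. At chr16:10750001-10770000, 226 contacts were counted in IFNG and 220 in pIL-4+IFNG, and at chr16:10800001-10820000 the counts were 175 and 167. Nlrc5 had 169 and 172 contacts at chr8:94410001-94430000. Irgm1 had 106 and 105 at chr11:48880001-48900000. Within each of these pairs the counts of both lists lay close together. Igtp and Irgm2 shared 1 pair per list, but in different bins: chr11:58180001-58200000 with 117 contacts in IFNG, and chr11:58200001-58220000 with 156 in pIL-4+IFNG. Parp14 likewise had a pair of 84 contacts in IFNG and another of 83 in pIL-4+IFNG.

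Other IFNG-induced genes had adjacent loops without IFNG as well. The pair at Irf8, a transcription factor gene that also stands in the macrophage list, was called in all 5 lists with 144, 162, 155, 171 and 170 contacts. The pair over Tap1 and Psmb9, which encode parts of the MHC class I peptide supply, had 126, 124, 138, 137 and 125 contacts. At Ciita, which encodes the transactivator of MHC class II genes, chr16:10500001-10520000 was called in every list but M0[CTR], with 219, 213, 201 and 253 contacts. In M0[CTR], 1 other pair overlapped the gene body. Upstream of Ciita, chr16:10460001-10480000 was called in both IFNG-treated lists only, with 191 and 165 contacts. The pair chr16:10450001-10470000 was called in M2[IL-4], IFNG and pIL-4+IFNG, with 179, 198 and 188. The TSS pair of Cd40, a costimulatory receptor gene, lacked a call in M0[CTR] and had 161, 149, 149 and 166 contacts in the other lists.

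Irf1, an interferon-responsive transcription factor gene, showed another arrangement. The pair holding its TSS, chr11:53770001-53790000, was called in the 3 lists without IFNG, with 130, 133 and 117 contacts, and in neither list with it. In pIL-4+IFNG, upstream pairs at chr11:53740001-53760000 and chr11:53750001-53770000 had 148 and 168 contacts. No adjacent pair lay within 20 kb of Irf1 in IFNG. Icam1, an adhesion receptor gene, had 233 contacts at its TSS pair in M2[IL-4] only, while another pair upstream was called in the other 4 lists with 149 to 166. Slamf8, Gbp4 and Gbp6 were among the 4 genes of the list with no adjacent pair nearby in any list.

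IL-4-induced genes showed no comparable split by list. Of 29 matched genes, 6, 11, 9, 10 and 12 had an adjacent pair within 20 kb of the TSS. Pairs near in the lists with IL-4 and after rest, and in no other, were found for 1 gene, Mgl2, beside 0.500% of all genes, and pairs in the 3 IL-4-exposed lists only for 0, beside 0.639%. The counts with the TSS inside the pair were 2, 4, 4, 4 and 0, and 8 genes had such a pair in at least 1 list, beside 15.9% of all genes. F10, which encodes coagulation factor X, stood apart: 4 adjacent pairs lay within 20 kb of its start in M2[IL-4] and none in the other lists. The pair with its TSS and that of its neighbour F7, chr8:13020001-13040000, had 138 contacts (115.9 to 163), and its neighbours at chr8:13000001-13020000, chr8:13040001-13060000 and chr8:13050001-13070000 had 129, 151 and 139. None of the 4 was called after washout and rest.

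Mgl2, a galactose-binding lectin gene, had a TSS pair both with IL-4 and after the rest period, with 131 and 130 contacts at chr11:70130001-70150000, and had no pair within 20 kb in the other lists. Mrc1, the mannose receptor gene, had a TSS pair in M2p[pIL-4] only, with 116 contacts. Alox15, a lipoxygenase gene, had one in the same list with 108. The chemokine gene Ccl17 had one in IFNG with 100 contacts, as did Pdcd1lg2, which encodes PD-L2, with 125. At Tgm2, a transglutaminase gene, the TSS pair was called in the 3 lists without a rest period, with 192, 200 and 205 contacts, and pIL-4+IFNG held pairs on either side of it with 152 and 192. The TSS pair of Batf3, a transcription factor gene, had 175, 179, 193 and 183 contacts in the first 4 lists and was not called in pIL-4+IFNG. Il4ra, which encodes the IL-4 receptor alpha chain, had a pair nearby in M0[CTR], IFNG and pIL-4+IFNG, with 170, 183 and 159 contacts, and none in M2[IL-4] or M2p[pIL-4]. Egr2, a transcription factor gene, had 126 contacts in M2[IL-4] and 131 in pIL-4+IFNG. Cdh1, Irf4 and Itgax had 1 nearby pair each, in M2[IL-4] only, with 132, 151 and 147 contacts. The genes Chil3, Arg1, Retnla and Klf4 had no adjacent pair within 20 kb in any list.

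Immediate early genes, many of which encode AP-1 subunits, had adjacent loops nearby in all 5 lists in 10 of 24 cases and in none in 4. Of the 24 genes, 10, 9, 11, 10 and 12 had the TSS inside a pair, against the all-gene shares given above. The 10 genes with a pair within 20 kb in all 5 lists made up 41.7%, beside 9.04% of all genes. This pattern was also found for 11 of 30 housekeeping genes (36.7%), 7 of 30 macrophage genes (23.3%) and 6 of 29 IFNG-induced genes (20.7%). It was found for 3 of 29 IL-4-induced genes and 3 of 29 markers of other cell types (10.3% each). Junb had 255, 203, 226, 233 and 224 contacts. Fos had 186, 197, 164, 201 and 165. Zfp36, whose protein promotes decay of cytokine mRNAs, had 177, 160, 160, 170 and 164. Klf2, a transcription factor gene, had 153, 158, 172, 162 and 181. Atf3 had 2 touching pairs in all 5 lists. Jun, Myc, Klf6 and Tnfaip3 had none within 20 kb in any list.

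The pairs of Fos and Zfp36 each held 1 match to the core CTCF consensus, a 14-base motif searched on both strands. The Junb pair was also counted with 1 match, by where the match starts, which is not shown. The matches of Fos and Zfp36 are shown in capitals with 8 bases on either side, on the strand that matched.
Fos pair, chr12:85487926-85487939, minus strand: tcccacaaCCACCAGGTGGCAGagatgctg
Zfp36 pair, chr7:28386672-28386685, minus strand: agctgaaaCCAGCAGGGGGCAGcagagtct
A consensus match does not show binding.

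Among 30 macrophage genes, the TSS lay inside an adjacent pair for 6, 4, 6, 4 and 9, where 7.72%, 8.69%, 8.55%, 7.20% and 9.18% of all genes had such a pair. Spi1, which encodes the lineage factor PU.1, had a TSS pair at chr2:91080001-91100000 in every list but M0[CTR], with 153, 153, 172 and 150 contacts. The pair 1 bin upstream, which also holds the TSS, had 125 contacts in M0[CTR] and 131 to 144 in 3 other lists. Itgam, which encodes CD11B, had 185 contacts without treatment, 171 with IL-4 and 191 after priming and IFNG. Housekeeping genes showed 6, 6, 6, 5 and 5 of 30 with a TSS pair. Markers of other cell types showed 4, 3, 3, 4 and 3 of 29, among them Cd4, Elane, Pecam1 and Ms4a1. Of these marker genes, 22 of 29 had no adjacent pair within 20 kb in any list, against 70.9% of all genes. Hi-C holds no RNA, so a pair at a marker gene does not report its expression.

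**Figure D1:**
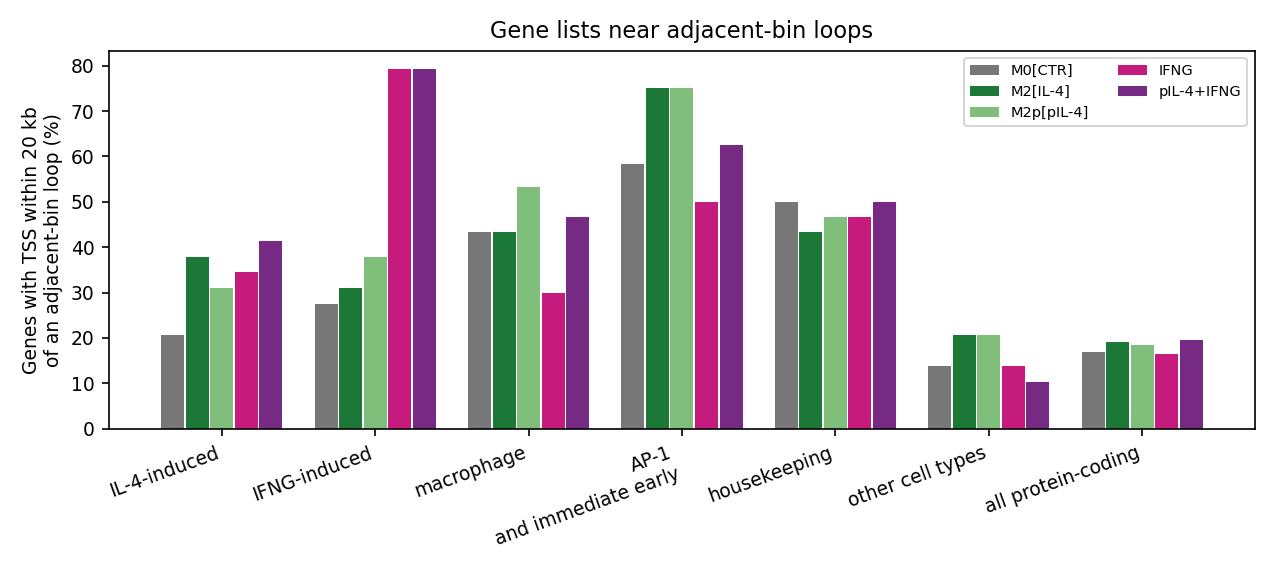
Share of genes (%) whose TSS lay within 20 kb of an adjacent-bin loop, for 6 gene lists and for all autosomal protein-coding genes; each bar is 1 loop list (no replicates, so no error bars). IFNG-induced genes reach 79.3% in both IFNG-treated lists and 27.6% to 37.9% in the others, while all genes stay between 16.5% and 19.7%. The gene lists were chosen with earlier results of these data known.

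Clusters of adjacent loops changed number between lists at particular loci. Counts were taken in 1889 windows of 200 kb, and the windows named here were chosen after their values were seen. Around Parp14, Dtx3l and Parp9 on chromosome 16, no adjacent loop was called in the 3 lists without IFNG, 6 were called in IFNG and 4 in pIL-4+IFNG. Around Gbp5, Gbp7 and Gbp3 on chromosome 3, the counts were 0, 0, 0, 5 and 6. The window of Samhd1, which encodes a nucleotide hydrolase that restricts viruses, and Soga1 held 2, 4, 2, 9 and 9. That of Nlrc5 held 0, 2, 0, 5 and 7, that of Rnf213 held 3, 2, 0, 7 and 9, and that of Trafd1 held 0, 3, 2, 6 and 6. Windows with large gains in IFNG over M0[CTR] also included some that were high in M2[IL-4]. That of Rassf2 and Slc23a2 held 1, 5, 4, 6 and 9, and that of Eng and Cdk9 held 4, 9, 5, 9 and 7.

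The other windows differed in which list held the most. The window from F7 to Lamp1, which holds F10, had 0, 6, 1, 0 and 0 adjacent loops. Epha2, an ephrin receptor gene, lay in a window with 8 adjacent loops with IL-4 and 1 or 2 in the other lists. Around Gpx3, Tnip1 and Anxa6 the numbers were 2, 8, 7, 2 and 3. The integrin window of Itgam, Itgax and Itgad held 3, 6, 0, 0 and 2. Ptpn1, a tyrosine phosphatase gene, had 2, 4, 3, 3 and 10. The window of Batf3, which ends before the Atf3 pairs above, had 5, 6, 7, 3 and 0, and that of Gys1, Ftl1 and Bax had 7, 5, 3, 0 and 2. Of all windows, 43 held at least 4 more adjacent loops in M2[IL-4] than in M0[CTR] and 5 at least 4 fewer. For IFNG against M0[CTR], these numbers were 20 and 27. For pIL-4+IFNG against IFNG they were 47 and 2, in the direction of the list lengths.

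**Figure D2:**
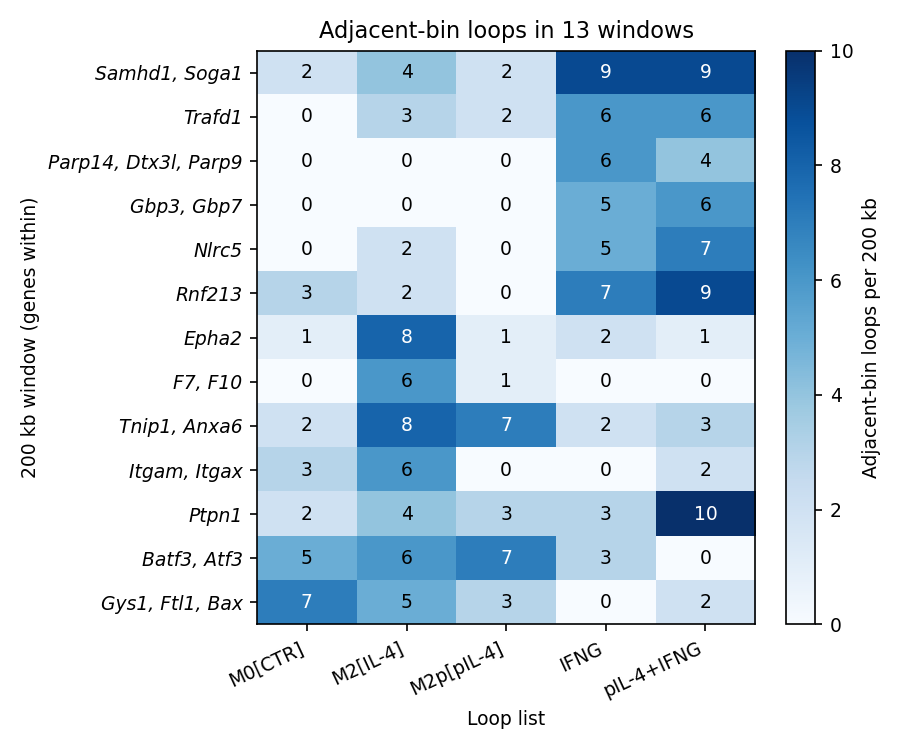
Number of adjacent-bin loops in 13 windows of 200 kb (rows, named by genes inside them) in each of the 5 loop lists (columns), with colour by number. The upper rows fill in both IFNG-treated lists, while the F7, F10 and Epha2 rows fill in M2[IL-4]. Rows were chosen after their values were seen, and the windows of Rassf2 and of Eng are not drawn.

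Several gene bodies, also chosen after their values were seen, carried at least 2 adjacent pairs in 1 set of lists and none elsewhere. The counts below are out of 20807 autosomal protein-coding genes, of which 5152 (24.8%) overlapped an adjacent pair in any list. Some of the genes overlap, such as Ppp1ca and Rad9a, so the same pair can count for several of them. In both IFNG-treated lists, 8 genes did so, among them Gbp7, Gbp2b, Parp9, Art3 and the ephrin gene Efna1. Parp9 had 3 pairs in IFNG and 2 in pIL-4+IFNG. In the 3 IL-4-exposed lists, Vav2, which encodes a guanine nucleotide exchange factor, was the only gene, with 4, 3 and 2 pairs. In M2[IL-4] alone 27 genes did so, including Mcf2l with 4 pairs and F10 with 3. M2[IL-4] together with M2p[pIL-4] gave 7 genes, and M0[CTR] together with IFNG gave 0. Genes of this kind were not counted for the other single lists, but they occurred there as well. Usp40 had 2 pairs in M2p[pIL-4] alone, and Naa15 and Nfatc2 had 2 each in pIL-4+IFNG alone. Whether the 27 genes are more than the length of the M2[IL-4] list (3291 adjacent loops) would give was not tested.

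The strongest pair called in all 3 IL-4-exposed lists and in neither other list lay at Akt1, which encodes a kinase of the insulin and growth factor pathways (chr12:112650001-112670000). It had 274, 280 and 295 contacts in the order of the lists. The next, at Gprc5c (chr11:114860001-114880000), had 233, 292 and 255. In both IFNG-treated lists and no other, the strongest lay in Soga1 (chr2:157060001-157080000), with 256 and 214 contacts, followed by the Socs1-flanking pair named above. In M0[CTR] and IFNG only, the pairs at Upk3bl and Maco1 led, with 193 and 205 contacts and with 197 and 182. Of pairs called in 1 list only, the leading ones lay at Zbtb32 and Upk1a in pIL-4+IFNG with 295 contacts, Grap2 in M2p[pIL-4] with 262, Ndufa3 and Prpf31 in M2[IL-4] with 234, Kbtbd4 in IFNG with 224, and in a stretch with no gene in M0[CTR] with 221. Pairs were ranked by counted contacts, which rose with sites for MboI, the cutting enzyme, among pairs called in all 5 lists. The pairs at Akt1, Gprc5c, Soga1 and flanking Socs1 held 58, 61, 66 and 49 sites. The leading pairs of 1 list only held 63, 67, 65, 67 and 66 in the order named. For called pairs the median was 49 and the upper quartile 54. What the sites contribute to these ranks was not tested.

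As a share of their autosomal lists, adjacent loops made up 4.90% (95% Wilson interval 4.72 to 5.09) in untreated cells and 5.66% (5.48 to 5.85) with IL-4. The share was 4.55% (4.40 to 4.71) after IL-4 and rest, 4.51% (4.33 to 4.68) with IFNG alone and 5.05% (4.89 to 5.22) with IFNG after priming. The intervals cover counting error only, and touching pairs are not independent. M2[IL-4] held 26.0% more adjacent loops than M0[CTR], while its list was 9.09% longer. The share was 0.760 percentage points higher (Newcombe interval 0.497 to 1.02). After washout and rest, the whole list was 16.2% longer than in M2[IL-4] while its number of adjacent loops changed by -6.53%, a difference in share of -1.11 points (-1.35 to -0.863). pIL-4+IFNG exceeded IFNG by 36.7% in adjacent loops and by 21.8% in all loops, a difference in share of 0.550 points (0.309 to 0.789). With each list cut to the length of the shortest by contacts relative to the median of their span, the numbers were 2612, 2952, 2378, 2329 and 2607, so that M2p[pIL-4] then lay below M0[CTR] and pIL-4+IFNG no longer had the most. With spans of 10 and 20 kb counted together, the numbers were 3828, 4605, 4724, 3613 and 5009, and M2p[pIL-4] then lay above M2[IL-4].

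Adjacent loops were short in span but rich in contacts. They held 16.3% to 19.2% of the contacts in the autosomal lists. Their median was 138 to 147 contacts per loop across lists, compared with 88 to 94 for loops spanning 20 kb and 32 for all autosomal loops. The lowest adjacent loop of a list had 42 to 54 contacts and the highest 278 to 299. A bin of the pair also anchored a loop of at least 50 kb for 69.7% to 75.6% of adjacent loops, against 20.5% to 23.6% of all sets of 2 neighbouring bins.

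**Figure D3:**
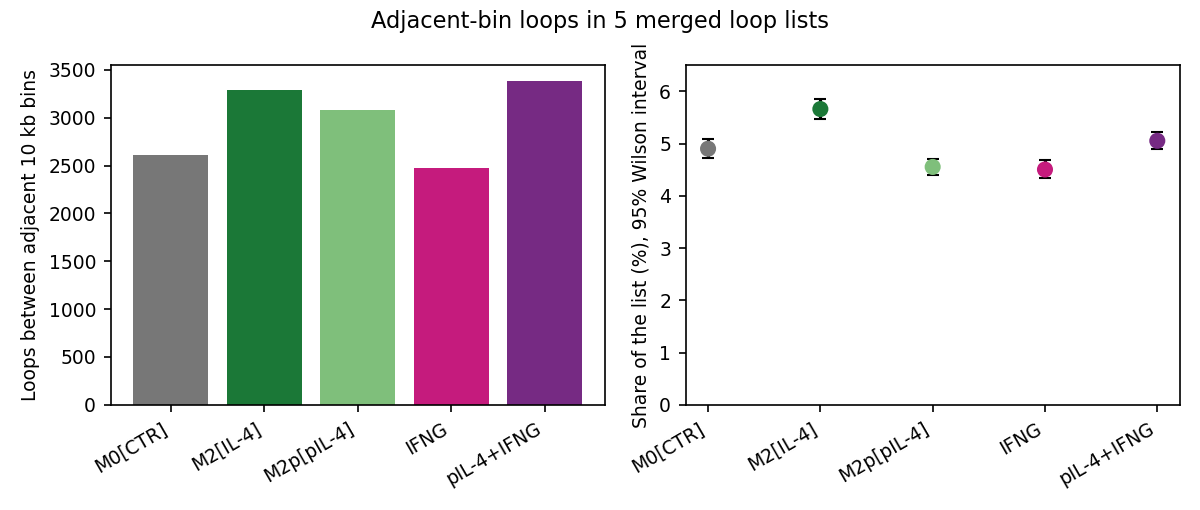
Number of adjacent-bin loops in each loop list (left) and their share of the autosomal list in percent with 95% Wilson intervals for counting error (right); each bar or point is 1 list. M2[IL-4] has the highest share, 5.66%, while pIL-4+IFNG has the highest number, 3378.

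Nearly as many adjacent pairs were called in a single list as in several. Of the 6869, 3219 (46.9%) were called in 1 list, 1421 (20.7%) in 2, 849 (12.4%) in 3, 679 (9.88%) in 4 and 701 (10.2%) in all 5. Over all autosomal bin pairs, 55.4% were called in 1 list and 9.19% in all 5. Mean contacts were higher for pairs that recurred: the median was 130 for pairs in 1 list and 159 for pairs in all 5. The largest single-list sets were those of pIL-4+IFNG with 821 pairs (12.0%, beside 13.3% of all autosomal bin pairs) and M2[IL-4] with 819 (11.9%, beside 10.6%). The 3 IL-4-exposed lists alone shared 128 pairs, or 1.86%, beside 1.45% of all autosomal bin pairs. M2[IL-4] and M2p[pIL-4] alone shared 216 (3.14%, beside 2.16%), and both IFNG-treated lists alone 187 (2.72%, beside 2.11%). M2[IL-4] and pIL-4+IFNG alone shared 198 (2.88%, beside 1.90%).

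Between 2 lists, 41.9% to 62.4% of the adjacent loops of one were found in the same bins of the other, against 41.5% to 53.5% for all autosomal loops. The highest share was that of IFNG loops found in pIL-4+IFNG. Beside each share of adjacent loops that follows stands that of all loops. Of adjacent loops in M2[IL-4], 54.8% were not called in M0[CTR], beside 55.5% of all loops. Of those in M2p[pIL-4], 51.1% were not in M0[CTR], beside 57.8%, and 45.8% were not in M2[IL-4], beside 56.0%. Of those in IFNG, 50.4% were not in M0[CTR], beside 54.4%. Of those in pIL-4+IFNG, 50.7% were not in M2p[pIL-4], beside 51.7%, and 54.4% were not in IFNG, beside 56.7%. In the other direction, 43.0% of the adjacent loops of M0[CTR] were not called in M2[IL-4], beside 51.4%, 42.4% not in M2p[pIL-4], beside 46.5%, and 53.0% not in IFNG, beside 53.0%. Of the adjacent loops of M2[IL-4], 49.3% were not in M2p[pIL-4], beside 48.8%. Of those of M2p[pIL-4], 45.8% were not called after the added IFNG, beside 52.2%, and of those of IFNG, 37.6% were not called in primed cells, beside 47.3%. Adjacent loops present in M2[IL-4] but not M0[CTR] had a median of 131 contacts, and those present in both had 144 in M2[IL-4].

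**Figure D4:**
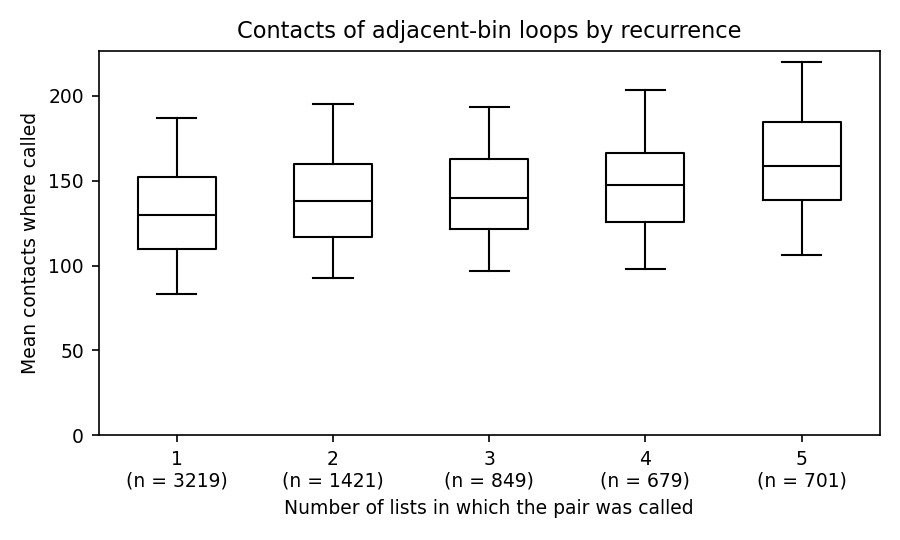
Contacts per adjacent-bin loop, averaged over the lists that called it, by the number of lists calling it; boxes are quartiles with the median, and whiskers run from the lowest to the highest 5% of pairs. The median moves from 130 contacts in 1 list to 159 in all 5.

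Contacts could be compared only at adjacent pairs called in both of 2 lists, so a pair whose contacts fell below the call in one list dropped out, and the spread given here covers only the pairs left. Between 1227 and 1668 pairs could be compared in each of 6 comparisons, after scaling by the summed contacts of constant bin pairs. The median log2 ratio lay between -0.02 and 0.02, and the standard deviation of the ratios was 0.132 to 0.137, below the 0.169 to 0.172 that sampling of the counts alone gives. An exact two-sided binomial test was run on each of 25027 to 32273 bin pairs of any span, with Benjamini-Hochberg adjustment. By this test, 0 adjacent pairs passed an adjusted p of 0.05 in any comparison. Over all spans, 2 bin pairs passed for IFNG against M0[CTR] (0.00799%) and 0 (0.00%) in each other comparison. An unadjusted binomial p under 0.05 was found for 16 to 35 adjacent pairs, or 1.30% to 2.22% of those compared. The share over all spans was 1.49% to 1.75%. The test compares 2 libraries and not their conditions.

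By size, 4 adjacent pairs in all reached a log2 ratio of 0.5 in either direction: 0 in each comparison with M0[CTR], 1 for M2p[pIL-4] against M2[IL-4], 2 for pIL-4+IFNG against M2p[pIL-4] and 1 for pIL-4+IFNG against IFNG. Over all spans, where counts are lower and ratios spread more, the shares higher and lower by this fold were 3.75% and 2.75% for M2[IL-4] against M0[CTR], 3.00% and 3.19% for M2p[pIL-4] against M0[CTR], and 3.47% and 2.98% for IFNG against M0[CTR]. They were 2.81% and 3.59% for M2p[pIL-4] against M2[IL-4], 3.31% and 3.20% for primed IFNG cells against M2p[pIL-4], and 3.01% and 3.21% for primed against unprimed IFNG cells. The largest difference lay at Fkbpl and Atf6b (chr17:34630001-34650000), with 204, 165, 172, 255 and 169 contacts. Its log2 ratio of pIL-4+IFNG to IFNG was -0.58 (95% interval -0.87 to -0.30; exact binomial p = 4.61e-05, adjusted p = 1). At Nes and Bcan (chr3:87970001-87990000), 193, 222, 215, 268 and 257 contacts were counted, with a log2 ratio of IFNG to M0[CTR] of 0.43. A stretch with no gene at chr17:29400001-29420000 had 116, 113, 116, 148 and 167, and its log2 ratio between primed cells with and without IFNG was 0.54.

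The strongest constant pairs varied little among lists. That at Arhgap45 (chr10:80000001-80020000) had 268, 278, 265, 287 and 282 contacts. A pair with no annotated gene on chromosome 8 (chr8:126850001-126870000) had 284, 273, 299, 265 and 248. The pair at Slc39a7, Rxrb and Col11a2 (chr17:34030001-34050000) had 252, 266, 246, 260 and 283. Others of the leading 8 lay at Gcgr, Esyt1, Tpi1 and Usp5, and Nmrk2, with means of 245 to 256 contacts.

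Adjacent pairs lay in gene-rich, GC-rich sequence. A protein-coding TSS lay within 39.9% of pairs called in any list (95% Wilson interval 38.8 to 41.1) and 52.6% of those called in all 5 (48.9 to 56.3), against 14.3% of all 239340 sets of 2 neighbouring autosomal bins. A gene body overlapped 86.6% of called pairs and 50.9% of all sets, and a single gene spanned the boundary of both bins in 69.8% and 41.3%. Median GC content was 48.1% in called pairs, 49.9% in constant ones and 41.4% overall. The median number of CpG was 264, 309 and 152. Loops spanning 20 kb were close to adjacent ones in this respect, with a TSS in 43.7% of their anchor sets, while loops of 20 kb or more had one in 26.4%. The order was different for CTCF: the consensus occurred in 4.92% of all sets, 9.28% of adjacent pairs, 11.1% of the anchor sets of 20 kb loops and 15.8% of those of loops spanning 20 kb or more.

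The count of sites for MboI, the enzyme that cut the chromatin at GATC, was close in called pairs (median 49) and in all sets (median 49), and was 51 in constant pairs. Within the 701 constant pairs, however, mean contacts moved with it, with Pearson's r of 0.69 and Spearman's rho of 0.71 across pairs, which share libraries and are not independent replicates. The median was 130.5 contacts in the 176 pairs with the fewest sites (27 to 46) and 193.6 in the 175 with the most (56 to 96). The part of this in the order of levels among pairs was not tested.

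**Figure D5:**
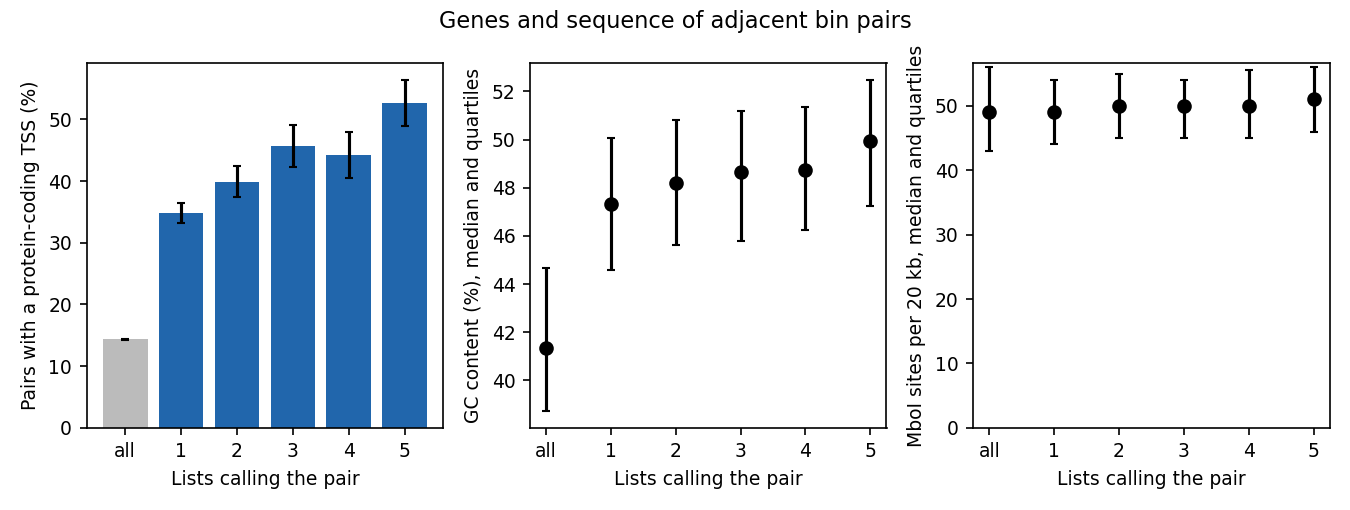
Share of pairs with a protein-coding TSS (%, with 95% Wilson intervals), GC content (%) and MboI sites per 20 kb (both as median with quartiles) for all sets of 2 neighbouring bins and for adjacent-bin loops by the number of lists calling them. The TSS share moves from 14.3% overall to 52.6% for pairs in all 5 lists, while the median of MboI sites stays between 49 and 51.

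Adjacent loops were unevenly spread along the genome. Chromosome 11 held 984 of the 6869, or 8.29 per Mb, followed by chromosome 19 with 5.48 and chromosome 17 with 4.73. Chromosomes 18 and 13 had 0.766 and 0.956 per Mb. For loops of any span, chromosomes 11, 19 and 17 led as well, with 110, 92.1 and 80.2 distinct bin pairs per Mb, while chromosomes 18 and 13 had 42.3 and 66.5. Across chromosomes, the density of adjacent loops moved with that of loops of 20 kb or more (Pearson's r of 0.82, Spearman's rho of 0.67). Across the 19 autosomes, density moved with genes per Mb (Pearson's r of 0.88, Spearman's rho of 0.91), given as a description since base composition differs among the same chromosomes. Neighbouring pairs often touched. Of the 701 constant pairs, 181 lay in 83 runs of at least 2 pairs, and 13 runs had exactly 3. The longest, chr17:34900001-34950000, had 4 pairs and covered Ehmt2, Slc44a4 and Neu1; runs of 3 included Fcrlb and Fcrla (chr1:170900001-170940000) and the stretch from Mapk3 to Aldoa (chr7:126760001-126800000). With pairs of any list joined, the longest run was 18 pairs over 190 kb (chr17:33930001-34120000), a part of the MHC that holds H2-K1, Rxrb, Brd2 and H2-DMa. The next had 13 pairs from Jund to Arrdc2 (chr8:70700001-70840000) and included Il12rb1.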

How the data were processed

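Hi-C was performed by the authors on 10 samples in 5 groups, assigned from the sample titles. Per the study's methods, reads were mapped with bowtie2 in HiC-Pro and loops were called with HICCUPS at 25 kb after Knight-Ruiz balancing; the submitters' processing notes also name FastQC, Juicer and HOMER and the mm10 build (GRCm38). The deposited files were 5 loop lists of 10 kb bins with whole-number counts of contacts, and which caller and threshold gave them is not given in the sources used here. The totals are contacts of called loops and not library depths. Bin pairs were matched by identical bins. Genes were those of GENCODE M21, a gene's TSS being its 5′ end. Counts at pairs called in both lists were scaled by summed contacts at bin pairs called in all 5 lists. They were tested by exact two-sided binomial tests with Benjamini-Hochberg adjustment over all spans. The test was tried on simulated Poisson counts with planted changes. Unlike the real counts, these were not limited by a call in both lists, so that trial does not show how the test behaves on the real pairs. Shares carry 95% Wilson intervals and their differences Newcombe intervals. Promoters came from RefSeq (GRCm38.p6). The gene lists, the members and the tests were chosen with earlier results of these data known. Named pairs were the 8 strongest constant pairs, the 2 highest and 2 lowest ratios of each comparison, the 2 strongest of each list or pattern, the 3 longest constant runs and the 5 strongest TSS pairs of each gene list; not all are printed. Other pairs, and the genes of the lists named beside them, were chosen after their values were seen. 3 list genes (Ear11, Cxcl11 and the X-linked Gata1) had no autosomal match, and 5 adjacent pairs with a bin of over 10% unsequenced bases were left out of sequence features. Alternatives were other spans, matching distances, scalings, filters and TSS rules. Computations used Python 3.11.15 with pandas 2.3.3, numpy 2.4.6, matplotlib 3.10.9 and scipy 1.17.1.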

Additional observations from a re-analysis of the deposited data

How the results depend on the processing

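No paired analysis was possible because the replicates of a group stood merged in 1 list, and for the same reason no replicate could be left out; every difference above therefore lacks a replicate check, and intervals cover counting error only. Of 122 alternatives for 42 results, 73 left the result within its limits and 49 moved it, in most cases because the rule was wider by construction. The 73 include the equal-length numbers of M2p[pIL-4] and pIL-4+IFNG, although that cut changed the order of the lists, so they do not all leave the reading unchanged. Taking spans of 10 and 20 kb together gave 4724 loops in M2p[pIL-4], against 3076, and 4605 in M2[IL-4], against 3291, which turned the direction of the change after washout. Cutting the lists to equal length gave 2378 in M2p[pIL-4] and 2612 in M0[CTR], which turned the direction of that difference in number. Shares of adjacent loops found in another list, in the order M2[IL-4] in M0[CTR], M2p[pIL-4] in M0[CTR], IFNG in M0[CTR], M2p[pIL-4] in M2[IL-4], pIL-4+IFNG in M2p[pIL-4] and pIL-4+IFNG in IFNG, were 45.2%, 48.9%, 49.6%, 54.2%, 49.3% and 45.6% in the same bins. They were 58.3%, 61.5%, 60.7%, 66.3%, 61.6% and 58.1% with anchors within 10 kb in another adjacent loop. Within 25 kb of a loop of any span they were 76.2%, 79.4%, 77.2%, 82.2%, 79.6% and 77.0%. For loops with at least the median contacts they were 53.8%, 58.1%, 59.5%, 62.6%, 59.3% and 53.8%. Without scaling, 1 adjacent pair passed a log2 ratio of 0.5 for M2p[pIL-4] against M0[CTR], against 0. With all GENCODE genes, a TSS lay in 55.4% of pairs of any list, 66.2% of constant pairs and 30.3% of all sets; with the TSS of any transcript these were 65.1%, 77.3% and 23.7%. Within 20 kb of the TSS, the genes with a pair in any list numbered 20 IL-4-induced, 25 IFNG-induced, 20 macrophage, 20 immediate early and 17 housekeeping, against 8, 14, 11, 13 and 9 with the TSS inside. By list these were, for IL-4-induced genes, 6, 11, 9, 10 and 12 in the 5 lists, and for IFNG-induced genes 8 and 11 in the M0[CTR] and M2p[pIL-4] lists and 23 and 23 in those with IFNG. By any base of the gene body, a rule chosen after seeing the data, IL-4-induced genes numbered 4 for M0[CTR], 8 for M2[IL-4], 7 for IFNG, 6 for pIL-4+IFNG and 14 for any list, IFNG-induced genes 17 and 17 in the lists with IFNG, and macrophage genes 18 in any list. With the TSS of any transcript, 2 IL-4-induced genes had a pair in pIL-4+IFNG, against 0.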

Other observations

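The X chromosome, which the comparisons above leave out, held few loops of any span, 142 to 195 per list. Of these, 1, 3, 1, 2 and 1 were adjacent loops in the order used above, while adjacent loops made up 4.51% to 5.66% of the autosomal lists. The median span of X loops was 190 to 230 kb, and that of autosomal loops 160 to 180 kb.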
